A study of Mus musculus with 11 samples.

Results

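The genes described here encode the enzymes of the tricarboxylic acid (TCA) cycle and of the reactions that feed pyruvate and glutamate into it. They were chosen by name from the gene count table, which lists 36666 genes, and all 35 of the listed enzymes were found there. RNA was sequenced from the cerebrum of 11 male C57/Bl6 mice aged 1 year. The 7 mutators carried the Polg D257A knock-in allele on both chromosomes (D257A/D257A), and the 4 control littermates comprised 3 WT/WT mice and 1 WT/D257A mouse, so that the control group was not purely wild type. All were bred from heterozygous parents. The D257A allele removes the proofreading activity of the mitochondrial DNA polymerase in every tissue and is a point mutation, which a count of reads per gene cannot show, so the genotypes rest on the labels.

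The TCA cycle oxidises acetyl-CoA in the mitochondrial matrix and hands the electrons to the respiratory chain as NADH and succinate. Pyruvate enters as acetyl-CoA through the pyruvate dehydrogenase complex, which kinases switch off and phosphatases switch on, or as oxaloacetate through pyruvate carboxylase. In brain the cycle is also tied to neurotransmission, because 2-oxoglutarate and glutamate are interconverted by transaminases and by glutamate dehydrogenase. The enzymes are encoded in the nucleus, whereas the mutations that Polg mutators accumulate lie in mitochondrial DNA. The comparison therefore asked whether the transcripts of these nuclear genes differed between mutator and control cerebrum.

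Libraries held between 28249345 and 121182250 gene counts. One library stood apart: mutator replicate 6 (mouse 248) had 3.00 gene counts for each aligned read in the list of read totals. The other 10 mice had 0.744 to 0.775. The changes of Idh2 and of the Ogdhl/Ogdh ratio are therefore also given without mouse 248. Cerebral markers were present in every mouse, with summed neuronal markers (Snap25, Syt1, Tubb3, Slc17a7 and Gad1) between 5161 and 5748 CPM, which are counts per 1000000 counts of the library after scaling. Of 10 marker lists, 1 of 6 endothelial genes was called higher in mutators (Vwf) and 1 of 5 striatal genes lower (Adora2a). No gene of the other lists was called, and over all genes tested 1.24% were called. By estimate 4 of the 6 endothelial genes were higher, while Cldn5 and Slco1a4 were lower. Vwf had means of 24.5 CPM in controls and 57.7 CPM in mutators. By estimate 0 of 5 microglial genes, 0 of 6 immediate early genes and 0 of 5 striatal genes were higher. The counts were 1 of 6 for oligodendrocytes, 1 of 5 for neurons, 2 of 6 for astrocytes and 2 of 4 for choroid plexus. For pericytes and smooth muscle 3 of 5 were higher, and for blood 3 of 3. Summed oligodendrocyte markers had means of 5007 CPM in controls and 5005 CPM in mutators. Summed endothelial markers ranged from 193 to 253 CPM in controls and from 230 to 302 CPM in mutators, and summed striatal markers from 443 to 572 CPM and from 369 to 487 CPM. Their part in the results on the enzymes was not tested, and in bulk tissue a smaller number of cells of a type and less RNA per cell cannot be told apart.

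All 35 enzyme genes passed the filter on low counts, and none of them was called at an adjusted p-value under 0.05 (edgeR quasi-likelihood test, Benjamini-Hochberg adjustment over 17983 genes). Across all genes tested, 1.24% were called. Before adjustment, 3 of the 35 enzyme genes had a p-value under 0.05 (Idh2, Ogdhl and Ogdh), against 15.8% of all genes. Among 10502 genes in the range of control means of the enzymes other than Glud1, 19.5% had such a p-value. In that range 1.53% were called. DESeq2 called 1 enzyme gene, Idh2, against 3.98% of the genes to which it gave an adjusted p-value, and limma-voom called none, against 1.03% of all genes. By estimate 15 genes were higher and 20 lower in mutators, with a median log2 fold change of -0.0067 against 0.0014 for all genes tested.

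The estimates were small as well as uncalled. For 27 of the 35 genes the mutator level lay within 5% of the control level, and for 33 within 10%. Of all genes tested 69.2% lay within 10%. The share was 84.7% among 10502 genes in the range of control means of the members other than Glud1 (8.86 to 740 CPM). The standard error of the log2 fold change had a median of 0.048. The 95% confidence interval lay inside -0.2 to 0.2 on the log2 scale for 28 genes and inside -0.3 to 0.3 for 31. The widest intervals belonged to Glud1, which had few counts in the gene table, and Pdk4. These intervals measure the spread between the mice of one cohort.

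**Figure D1:**
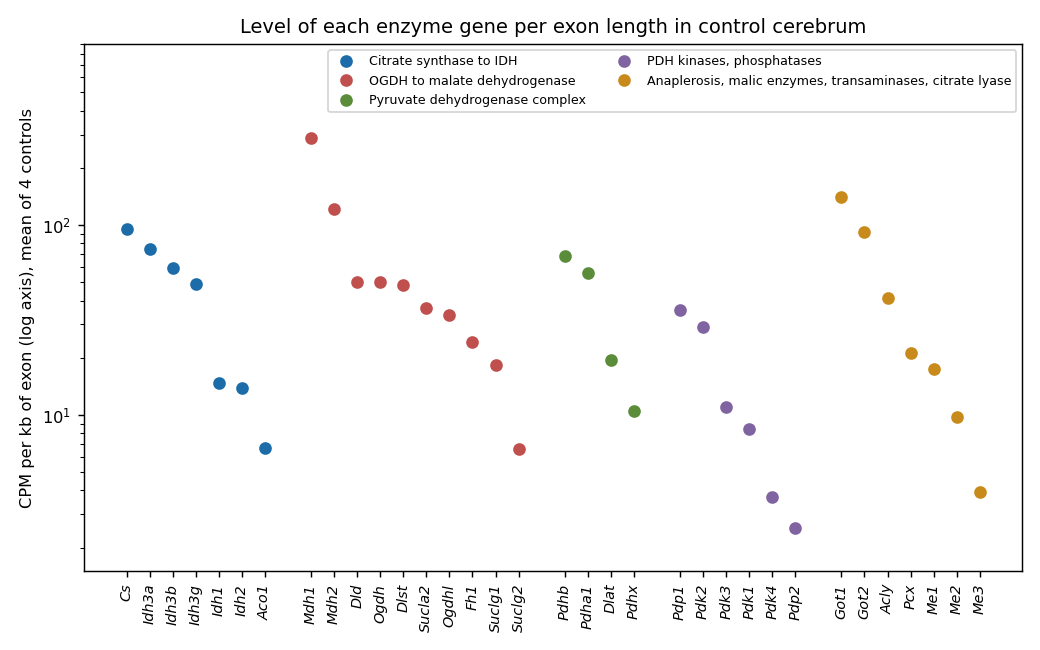
Level of 34 enzyme genes in control cerebrum, as mean CPM of the 4 controls per kb of annotated exon, on a log axis and coloured by role. Mdh1 lies highest at 288 and Pdp2 lowest at 2.54; Glud1 is not drawn because the gene table holds few of its reads.

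**Figure D2:**
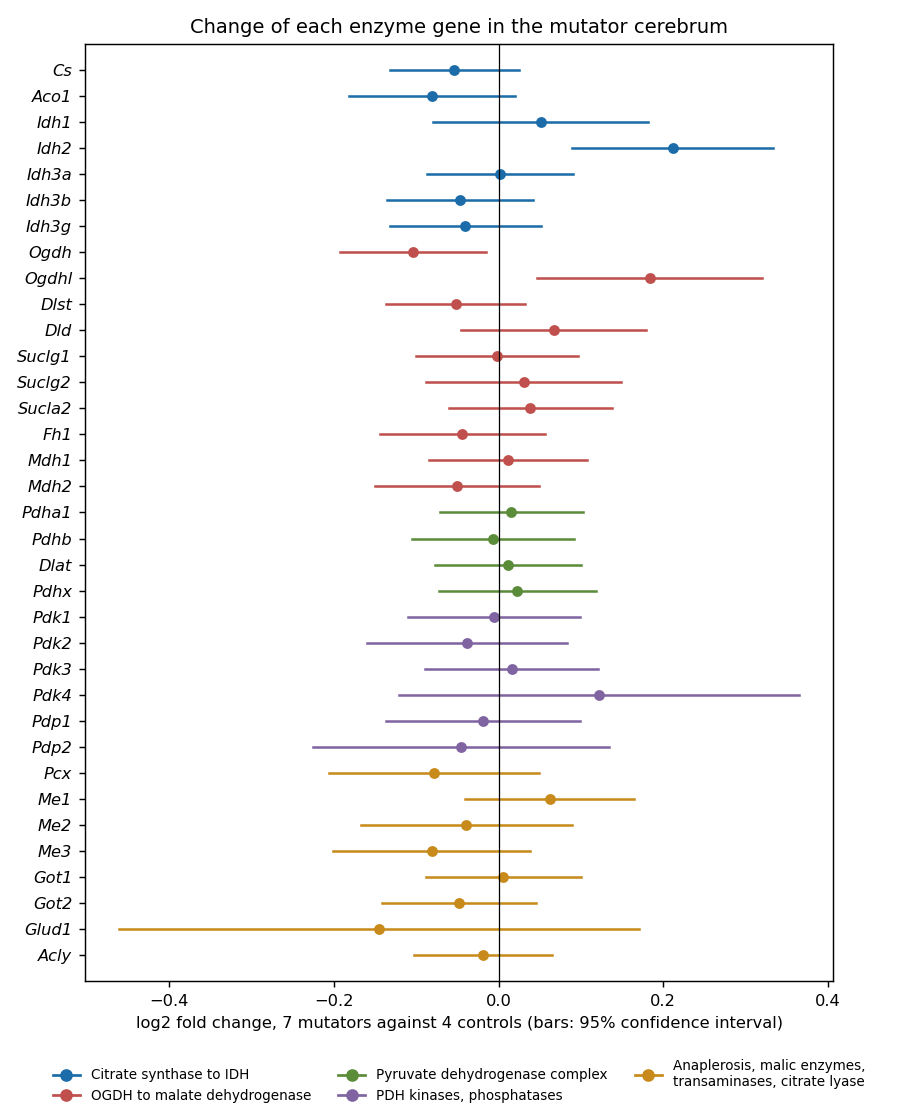
Log2 fold change of each of the 35 enzyme genes in 7 mutators against 4 controls (points), with the 95% confidence interval (bars), coloured by role. Most intervals span 0, and those of Idh2 (0.21), Ogdhl (0.18) and Ogdh (-0.10) do not.

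The first steps of the cycle, from citrate synthase to isocitrate dehydrogenase, were covered by 7 genes, of which 3 were higher and 4 lower by estimate. Cs encodes citrate synthase, which condenses acetyl-CoA with oxaloacetate, and lies on chromosome 10 (mm9, 127774888 to 127799535, plus strand). Its level was 272, 267 and 274 CPM in the WT/WT controls and 265 CPM in the WT/D257A control, and in the 7 mutators the lowest, median and highest values were 252, 262 and 264 CPM. The groups did not overlap, each mutator lying below each control. Cs was the 1 enzyme gene of 35 with this property, against 2.62% of all genes tested. The difference was 3.66%, with a log2 fold change of -0.05 ± 0.04 (SE) and an unadjusted p-value of 0.168 in the edgeR fit, in which the spread of a gene is moderated towards that of genes of similar level (adjusted p = 0.517). The gap between the lowest control, at 264.5 CPM, and the highest mutator, at 263.9 CPM, was smaller than the SD of either group (4.25 and 4.82 CPM).

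Idh2 had the largest estimate of the 35 genes. It encodes the mitochondrial NADP-dependent enzyme, a source of NADPH for the antioxidant systems of the matrix, and lies on chromosome 7 (87239732 to 87260278, minus strand). Its level was 36.2, 37.3 and 31.8 CPM in the WT/WT controls and 38.0 CPM in the WT/D257A control, against 36.9, 42.1 and 44.0 CPM as the lowest, median and highest of the mutators. In 6 of 7 mutators Idh2 lay above every control, and the exception was mutator replicate 6. The log2 fold change was 0.21 ± 0.06 (SE), or 1.16-fold (95% confidence interval 1.06 to 1.26), with an adjusted p-value of 0.0760 in edgeR. The call depended on the method and on single mice. DESeq2 gave an adjusted p-value of 0.0263, and edgeR gave 0.0461 without mutator replicate 6 (log2 fold change 0.24) and 0.270 without control WT/WT replicate 3 (log2 fold change 0.16).

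Idh1 encodes the cytosolic NADP-dependent counterpart. Its control values overlapped those of the mutators, which ranged from 34.8 to 42.4 CPM around a control mean of 37.4 ± 3.73 CPM (SD, n = 4), and its log2 fold change was 0.05 (95% confidence interval -0.08 to 0.18). The coding sequences of the pair share no run longer than 19 bases, whereas reads were 100 bases long, and no window of 100 bases occurred in both transcripts. The stretch is shown with 20 bases on each side, from the GENCODE vM1 transcripts on mm9, with the shared run in capitals. It lies in coding exon sequence, in exon 3 of each transcript, at chr1:65217775-65217793 (minus strand) for Idh1 and at chr7:87245710-87245728 (minus strand) for Idh2.
Idh1: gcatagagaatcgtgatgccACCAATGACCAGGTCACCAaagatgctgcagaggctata
Idh2: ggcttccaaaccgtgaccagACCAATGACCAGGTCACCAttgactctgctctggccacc

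The NAD-dependent isocitrate dehydrogenase, which carries the flux of the cycle, is built from the products of Idh3a, Idh3b and Idh3g. Per kb of exon these were more abundant in controls than either NADP-dependent gene, at 74.5, 59.5 and 49.1 CPM per kb against 14.8 for Idh1 and 13.8 for Idh2. Their log2 fold changes were 0.00 for Idh3a, -0.05 for Idh3b and -0.04 for Idh3g, and all 3 intervals included 0. Aco1 encodes the cytosolic aconitase, which doubles as the iron-responsive protein IRP1. Its level was 34.1, 34.8 and 35.0 CPM in the WT/WT controls and 34.8 CPM in the WT/D257A control, and 30.5, 32.7 and 34.9 CPM at the lowest, median and highest mutator. Of the mutators 6 lay below every control and 1 lay among them (log2 fold change -0.08 ± 0.05 SE, edgeR adjusted p = 0.439).

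The later steps of the cycle, from 2-oxoglutarate to oxaloacetate, were represented by 10 genes, of which 5 were higher and 5 lower by estimate. The 2-oxoglutarate dehydrogenase complex, a rate-setting step of the cycle, contains an E1 subunit encoded by Ogdh and an E1-like relative encoded by Ogdhl, which is expressed chiefly in brain. The coding sequences of the 2 genes are related, and their longest identical run of 29 bases is printed because the results turn on telling them apart. It lies in exon 16 of each transcript, at chr14:33155276-33155304 (plus strand) for Ogdhl and at chr11:6248711-6248739 (plus strand) for Ogdh, with the shared run in capitals and 20 bases on each side.
Ogdhl: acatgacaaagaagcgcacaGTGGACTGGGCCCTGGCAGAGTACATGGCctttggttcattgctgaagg
Ogdh: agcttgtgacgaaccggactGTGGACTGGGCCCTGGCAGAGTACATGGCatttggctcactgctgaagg
No 100-base window of the Ogdhl transcript occurred in the Ogdh transcript.

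Ogdhl was measured at 111, 115 and 120 CPM in the WT/WT controls and at 119 CPM in the WT/D257A control. The lowest, median and highest mutators were at 114, 132 and 155 CPM. Of the mutators 6 lay above every control, and the remaining one lay within their range. The log2 fold change was 0.18 ± 0.07 (SE), or 1.14-fold (95% confidence interval 1.03 to 1.25), with an edgeR adjusted p-value of 0.169. The mutators were also more scattered than the controls, with a coefficient of variation of 10.5% against 3.41%. Among the 35 enzyme genes this coefficient was larger in mutators for 15, and its median was 4.66% in mutators and 5.34% in controls. The difference in spread was not tested.

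Ogdh stood on the other side. Its level was 268, 266 and 278 CPM in the WT/WT controls and 278 CPM in the WT/D257A control, against 239, 258 and 266 CPM as the lowest, median and highest of the mutators. Of the mutators 6 lay below every control, and the highest mutator lay within the range of the controls. The log2 fold change was -0.10 ± 0.04 (SE), with an edgeR adjusted p-value of 0.234. Neither gene was called by DESeq2 or limma-voom, nor with any mouse left out.

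**Figure D3:**
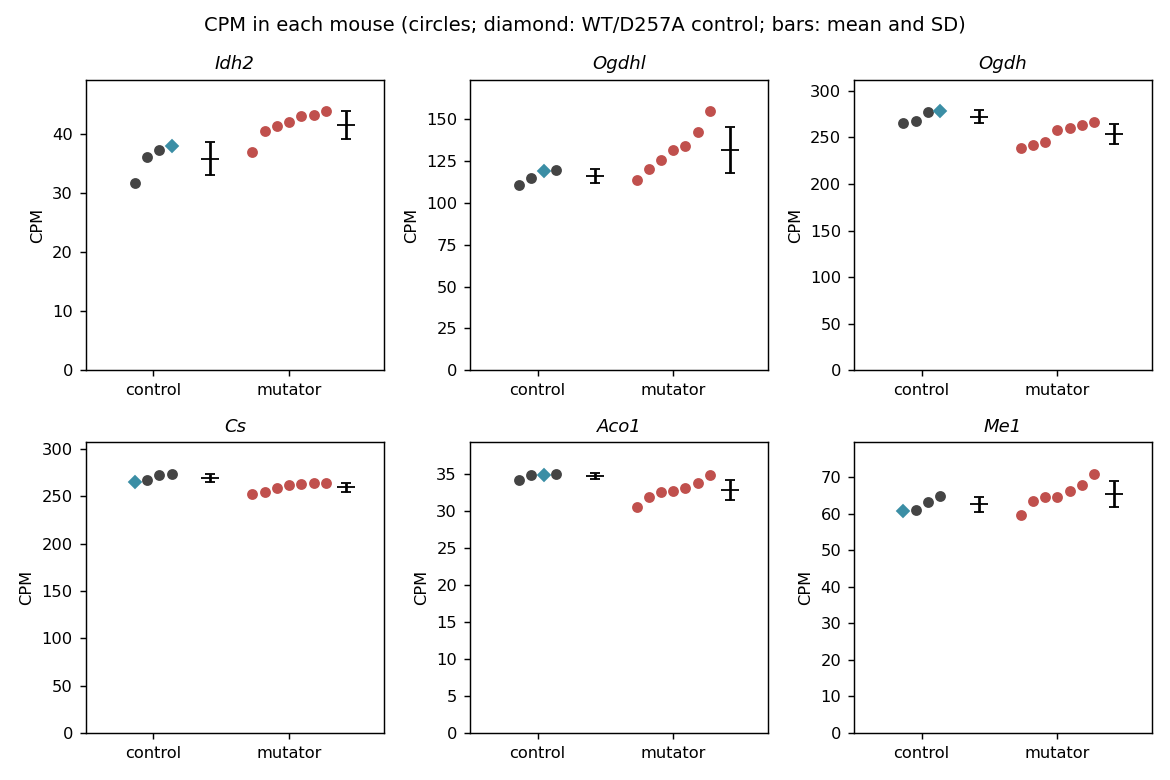
CPM in each mouse for Idh2, Ogdhl, Ogdh, Cs, Aco1 and Me1, with the mean and SD at the right of each group (4 controls and 7 mutators; the diamond is the WT/D257A control; axes start at 0). Cs is the panel in which the groups do not overlap, and the difference there is 3.66%.

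The relation between the 2 genes was compared within each mouse, as the log2 ratio of their CPM (prior count 2), together with 7 other ratios of enzymes that share or oppose a reaction. The Ogdhl/Ogdh ratio was 0.415 to 0.434 in the 4 controls, and its lowest, median and highest values in the mutators were 0.464, 0.506 and 0.588. The groups did not overlap. The mean log2 ratio was -1.23 ± 0.03 (SD, n = 4) in controls and -0.95 ± 0.13 (SD, n = 7) in mutators, a difference of 0.28, or 1.21-fold. The exact permutation test over all 330 ways to choose 4 of the 11 mice gave a 2-sided p of 0.00606, which is the smallest that this design allows, and 0.0485 after Benjamini-Hochberg adjustment over the 8 ratios. The enzyme pairs were drawn up with earlier results of these data known, so this adjustment does not cover the choice of pairs, and the ratio is built from genes of which neither was called alone. Without mutator replicate 6 the difference was 0.29, and over all 11 mice left out in turn it ranged from 0.25 to 0.31. With a mouse left out the adjusted p ranged from 0.0667 to 0.133, where the unadjusted p was the smallest that the remaining mice allow.

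The other 7 ratios gave adjusted p-values of 0.339 or more by the exact permutation test, and their groups overlapped. The Idh1/Idh2 log2 ratio was 0.06 ± 0.19 (SD, n = 4) in controls and -0.10 ± 0.13 (SD, n = 7) in mutators, a difference of -0.16. Its overlap came from the WT/D257A control, at -0.21, since the 3 WT/WT controls, at 0.19, 0.08 and 0.18, lay above every mutator (highest 0.07). Without that control the difference was -0.25, with an exact permutation p of 0.0167, the smallest that 3 against 7 mice allow, and an adjusted p of 0.0667. The differences of the log2 ratio were 0.14 for Me1/Me3, 0.16 for Pdk4/Pdk2, 0.06 for Mdh1/Mdh2 and 0.06 for Got1/Got2. Without the WT/D257A control those of Me1/Me3, Pdk4/Pdk2 and Mdh1/Mdh2 were 0.07, 0.03 and 0.02, and that of Got1/Got2 was 0.03 without control WT/WT replicate 2. For Sucla2/Suclg2 and Pdp2/Pdp1 they were 0.01 and -0.03, and the sign of both depended on the mice included.

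**Figure D4:**
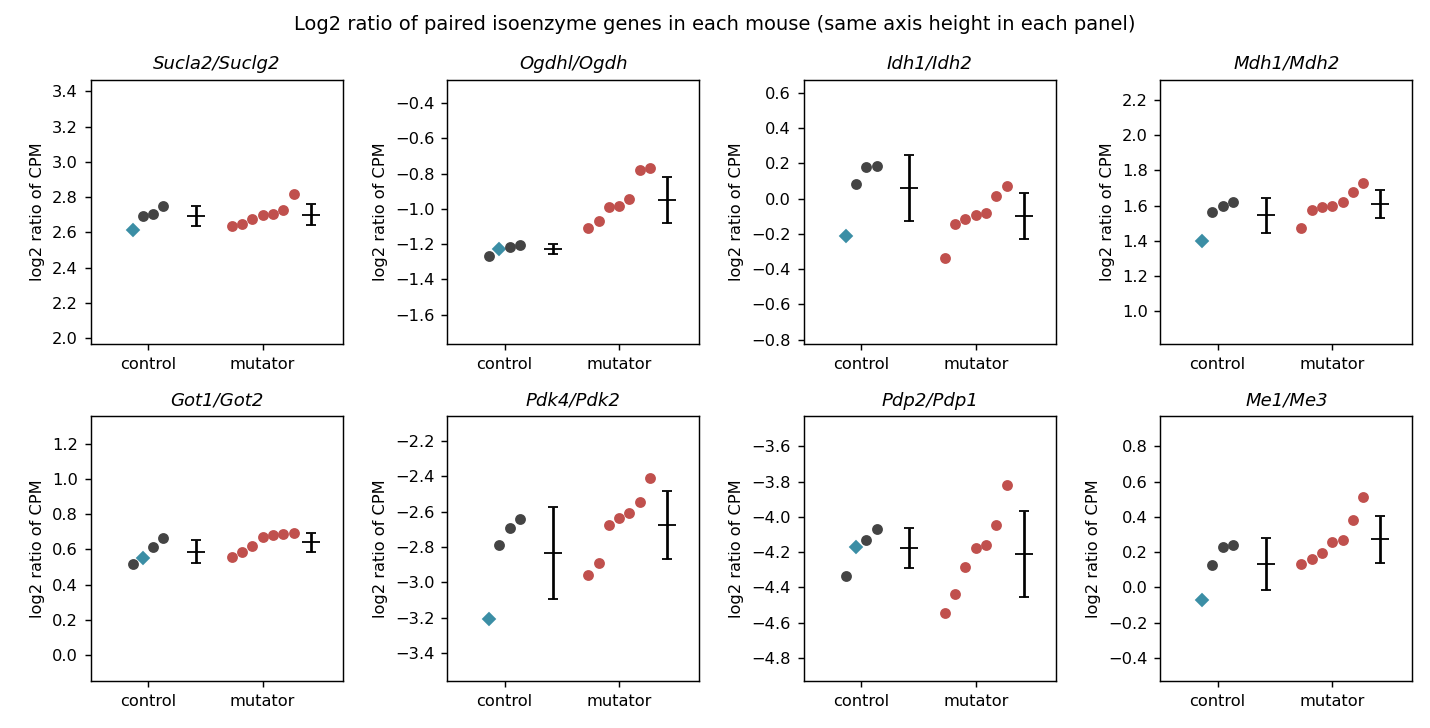
Log2 ratio of CPM of 8 enzyme pairs in each mouse, with the mean and SD of 4 controls and 7 mutators (the diamond is the WT/D257A control; each panel spans the same height). The mutators lie above the controls without overlap for Ogdhl/Ogdh, from -1.11 to -0.77 against -1.27 to -1.21, and overlap them in the other 7 panels.

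The partners of Ogdh in the complex were closer to the controls. Dlst encodes the E2 subunit, which carries the lipoyl arm, and was at 129, 133 and 139 CPM in the WT/WT controls, 136 CPM in the WT/D257A control, and 123, 131 and 133 CPM at the lowest, median and highest mutator (log2 fold change -0.05 ± 0.04 SE). Dld encodes the E3 subunit, shared with pyruvate dehydrogenase. It was at 112, 112 and 124 CPM in the WT/WT controls, 101 CPM in the WT/D257A control, and 107, 118 and 126 CPM at the lowest, median and highest mutator (log2 fold change 0.07 ± 0.05 SE). Both sets of values overlapped between the groups.

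Succinyl-CoA synthetase makes a nucleotide triphosphate at substrate level, with an ATP-forming subunit encoded by Sucla2, a GTP-forming one by Suclg2, and a common subunit by Suclg1. Per kb of exon Sucla2 exceeded Suclg2 in controls, at 36.4 against 6.60 CPM per kb, and the log2 fold changes in mutators were 0.04 for Sucla2, 0.03 for Suclg2 and 0.00 for Suclg1. Suclg2, the least abundant of these 10 genes, was at 22.3, 22.8 and 22.6 CPM in the WT/WT controls, 21.9 CPM in the WT/D257A control, and 21.5, 22.7 and 25.5 CPM at the lowest, median and highest mutator. Fh1 encodes fumarase and had a log2 fold change of -0.04 (95% confidence interval -0.14 to 0.06).

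Malate dehydrogenase closes the cycle in the matrix (Mdh2), and its cytosolic form (Mdh1) serves the malate-aspartate shuttle. Mdh1 was the most abundant of the enzyme genes per kb of exon, at 288 CPM per kb in controls. It was at 715, 744 and 807 CPM in the WT/WT controls, 696 CPM in the WT/D257A control, and 708, 744 and 781 CPM at the lowest, median and highest mutator. The log2 fold change was 0.01 (95% confidence interval -0.08 to 0.11), and that of Mdh2 was -0.05 (-0.15 to 0.05). The mutators lay inside the range of the controls for Mdh1.

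The core of the pyruvate dehydrogenase complex had the lowest median coefficient of variation of the 5 role groups, at 4.73% in controls and 2.57% in mutators. Its E1 subunits are encoded by Pdha1 and Pdhb, the acetyl-transferring E2 by Dlat, and the E3-binding protein by Pdhx. The 4 log2 fold changes lay between -0.01 and 0.02, with standard errors of 0.04 to 0.05, and their intervals together ran from -0.10 to 0.12. Coefficients of variation were 3.15% to 5.53% in controls and 2.17% to 4.27% in mutators, against medians of 8.17% and 8.89% over all genes tested. Over genes with control means of 8.86 to 740 CPM the medians were 5.83% and 6.33%. That range is wider than the 41.3 to 211 CPM of these 4 genes.

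Pdha1, the most abundant of them, was at 212, 212 and 222 CPM in the WT/WT controls, 198 CPM in the WT/D257A control, and 203, 214 and 217 CPM at the lowest, median and highest mutator. The annotation places 603 bases of its exons opposite those of Map3k15, from which the unstranded libraries cannot separate it. Pdhx, the least abundant, was at 41.2, 41.2 and 42.9 CPM in the WT/WT controls, 39.7 CPM in the WT/D257A control, and 40.7, 41.7 and 43.9 CPM at the lowest, median and highest mutator. Both genes overlapped between the groups.

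The regulators of the complex were 4 kinases, which inactivate it, and 2 phosphatases, which reactivate it. By estimate 2 of these 6 genes were higher and 4 lower, with the smallest adjusted p-value at 0.653 (edgeR). Pdk4, the kinase that fasting and glucocorticoids are known to induce, was at 14.1, 12.5 and 14.3 CPM in the WT/WT controls, 10.8 CPM in the WT/D257A control, and 11.2, 13.1 and 18.1 CPM at the lowest, median and highest mutator. It was given here for its interval, the widest among the genes with ample counts, of -0.12 to 0.37 around a log2 fold change of 0.12. The intervals of Pdk1, Pdk2 and Pdk3 ran no further than -0.16 to 0.12, with log2 fold changes of -0.01, -0.04 and 0.02.

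Pdp1, the more abundant phosphatase gene per kb of exon, was at 166, 162 and 161 CPM in the WT/WT controls, 152 CPM in the WT/D257A control, and 142, 158 and 178 CPM at the lowest, median and highest mutator. The mutators spread to both sides of the controls, with a coefficient of variation of 8.45% against 3.55%. Pdp2 was the least abundant enzyme gene per kb of exon, at 2.54 CPM per kb. It was at 8.20, 9.23 and 9.59 CPM in the WT/WT controls, 8.43 CPM in the WT/D257A control, and 7.59, 8.29 and 10.1 CPM at the lowest, median and highest mutator. The log2 fold changes were -0.02 ± 0.06 (SE) for Pdp1 and -0.05 ± 0.09 (SE) for Pdp2.

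The last 8 genes replenish or drain the cycle. By estimate 2 were higher and 6 lower, and the smallest adjusted p-value was 0.519 (edgeR). Pcx encodes pyruvate carboxylase, which in brain is found mainly in astrocytes and makes oxaloacetate from pyruvate. It was at 84.4, 89.1 and 93.5 CPM in the WT/WT controls, 96.9 CPM in the WT/D257A control, and 76.4, 86.3 and 101 CPM at the lowest, median and highest mutator, overlapping widely (log2 fold change -0.08 ± 0.06 SE). Summed astrocyte markers were 1254 to 1356 CPM in controls and 1209 to 1473 CPM in mutators, with none of 6 called.

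The malic enzymes decarboxylate malate to pyruvate, in the cytosol for Me1 and in mitochondria for Me2 and Me3. Me1 was at 64.9, 61.1 and 63.1 CPM in the WT/WT controls, 60.8 CPM in the WT/D257A control, and 59.6, 64.6 and 70.9 CPM at the lowest, median and highest mutator. Me3 was at 55.3, 56.0 and 53.3 CPM in the WT/WT controls, 64.0 CPM in the WT/D257A control, and 49.7, 54.1 and 59.0 CPM at the lowest, median and highest mutator. The groups overlapped in both, with log2 fold changes of 0.06 ± 0.05 (SE) for Me1 and -0.08 ± 0.06 (SE) for Me3, and that of Me2 was -0.04. Antisense transcripts overlap 30 bases of Me1 exons and 569 bases of Me3 exons in the annotation.

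Got1 and Got2 encode the cytosolic and mitochondrial aspartate transaminases, which exchange amino groups between glutamate and oxaloacetate. Got1 was at 345, 344 and 386 CPM in the WT/WT controls, 354 CPM in the WT/D257A control, and 332, 366 and 371 CPM at the lowest, median and highest mutator. Its log2 fold change was 0.01 (95% confidence interval -0.09 to 0.10), and that of Got2 was -0.05 (-0.14 to 0.05). Acly encodes ATP-citrate lyase, which splits exported citrate for lipid and acetylcholine synthesis, and had a log2 fold change of -0.02 (-0.10 to 0.06). The groups overlapped for all 3 genes.

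Glud1 encodes glutamate dehydrogenase, which converts glutamate to 2-oxoglutarate and is abundant in astrocytes. In the gene table it had only 67 to 260 counts per mouse. It was at 2.13, 1.91 and 2.76 CPM in the WT/WT controls, 2.53 CPM in the WT/D257A control, and 1.66, 1.99 and 2.54 CPM at the lowest, median and highest mutator (log2 fold change -0.15 ± 0.15 SE). In the exon-bin tables of the same libraries, which cover 3 WT/WT controls and 7 mutators, the bins of Glud1 summed to between 8844 and 38333 counts, so the gene table held 0.503% to 0.859% of that number. For the other 34 genes the bin sums were 0.547 to 1.91 times the gene counts. In the flattened exon annotation Glud1 is merged with another overlapping gene model, the only one of the 35 genes in a merged group. The part of that model in the loss from the gene table was not tested.

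The summed exon bins of the merged group that holds Glud1 were at 354 ± 13.9 CPM (SD, n = 3) in WT/WT controls. In mutators they were at 353 ± 15.8 CPM (SD, n = 7). The log2 fold change was 0.00 (95% confidence interval -0.10 to 0.10). Each mutator value lay between 326 and 369 CPM, and the groups overlapped.

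**Figure D5:**
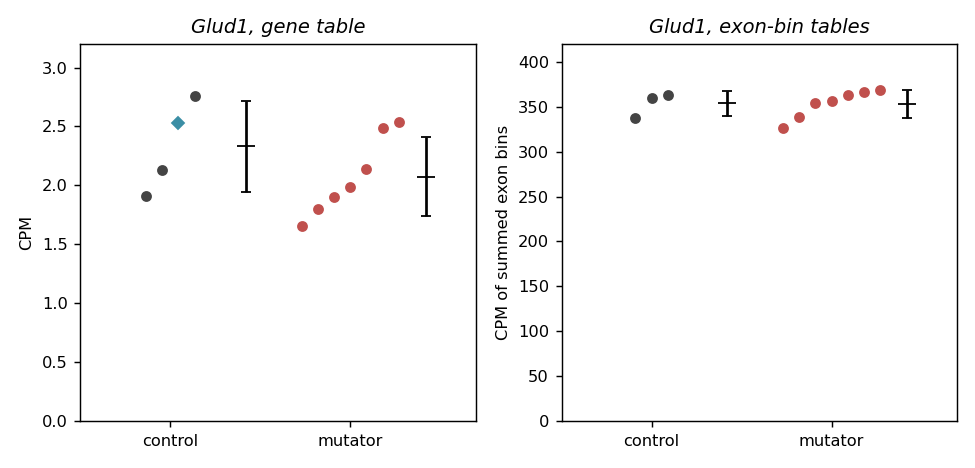
Glud1 in each mouse as CPM from the gene table (left; 4 controls, the diamond being the WT/D257A mouse, and 7 mutators) and from summed exon bins (right; 3 WT/WT controls and 7 mutators), with the mean and SD. The gene table places Glud1 at 1.66 to 2.76 CPM. The exon bins, of the merged group that holds Glud1, have means of 354 and 353 CPM.

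The same sums were used as a second count of the other genes, a comparison added after Glud1 had been seen. Across 17508 gene groups 47 (0.268%) were called by edgeR, among them none of the 35 enzymes. Idh2 had a log2 fold change of 0.25 ± 0.06 (SE, adjusted p = 0.129 by edgeR), Ogdhl one of 0.20 ± 0.08 (adjusted p = 0.389) and Ogdh one of -0.09 ± 0.05 (adjusted p = 0.533). The reads of a gene overlap between both tables, so the second count is not independent of the first.

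Exon usage, the share of a gene's reads in each of its exon bins, was compared between the 3 WT/WT controls and the 7 mutators. The 35 genes had 715 bins, of which 636 were tested and none was called by edgeR's diffSpliceDGE at an adjusted p-value under 0.05, against 0.0237% of the 206930 bins tested in all. These 49 bins became 5 without control WT/WT replicate 2 and 186 without control WT/WT replicate 1, with none in the enzymes in any of these fits. Before adjustment, 11 bins in 9 genes had a p-value under 0.05, or 1.73% of the bins of these enzymes against 1.90% of all bins. With limma-voom none was called, against 0.0121% of all bins. The smallest unadjusted p-value, 0.00740, belonged to bin 2 of Pdk3.

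Bins of the 3 genes whose intervals excluded 0 mostly had estimates of one sign. In Idh2 23 of 24 tested bins were higher in mutators by estimate, in Ogdhl 23 of 24 were higher, and in Ogdh 42 of 45 were lower. These 3 genes were picked by their whole-gene change, which the signs of their bins follow. Genes whose intervals included 0 could be as one-sided, with 10 of 11 bins lower in Cs and 10 of 10 in Pdp1. In Dld 15 of 17 bins were higher, whereas in Idh1 7 were higher and 7 lower. Bins of a gene come from the same molecules and mice, so these counts describe the genes and add no replicates.

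Around these enzymes, 73 genes of neighbouring reactions were examined, of which 70 were tested. They covered succinate dehydrogenase, pyruvate and acetyl-CoA supply, mitochondrial carriers, glutamate and glutamine handling, lipoate partners, gluconeogenesis, lipid synthesis and targets of FoxO, PPAR and glucocorticoid signalling. By edgeR 2 were called, of which Slc38a3 is described here, against 1.24% of all genes, and 20 had an unadjusted p-value under 0.05, against 15.8% of all genes. The median log2 fold change was -0.01.

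Slc38a3, the glutamine transporter SNAT3 of astrocytes, was at 72.6, 69.0 and 78.6 CPM in the WT/WT controls, 86.9 CPM in the WT/D257A control, and 55.4, 57.0 and 67.9 CPM at the lowest, median and highest mutator. Each mutator lay below each control. The log2 fold change was -0.36 ± 0.07 (SE), with an adjusted p-value of 0.00978 by edgeR.

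The call of Slc38a3 depended on the WT/D257A control. Without it the adjusted p-value by edgeR was 0.0777, with a log2 fold change of -0.29, and none of the 70 genes was called. Of the genes not called by edgeR, the 5 with the smallest p-values were Angptl4 (log2 fold change 0.73) and Sgk1 (0.82), targets of PPAR and glucocorticoid signalling, the mitochondrial glutamate carrier Slc25a22 (-0.18), fatty acid synthase Fasn (-0.18) and the acetyl-CoA synthetase Acss2 (-0.16). Among the 13 genes listed for FoxO, PPAR and glucocorticoid signalling, 8 were higher and 5 lower by estimate. Cpt1a was at -0.02 and Tsc22d3 at 0.17. DESeq2 called 6 of the related genes, among them Slc38a3, Slc25a22, Slc1a2, Angptl4 and Sgk1. It called 3.98% of the genes to which it gave an adjusted p-value. The 6 tested genes of succinate dehydrogenase and its assembly, the step of the cycle that belongs to the respiratory chain, had no call and a median log2 fold change of -0.03.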

How the data were processed

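RNA of 11 cerebra was sequenced as unstranded 100-base paired reads from poly(A) libraries. Per the labels and methods, the authors aligned reads to mm9 with TopHat2 2.0.6 and Bowtie2 2.0.2.0 and counted them on Ensembl genes with HTSeq 0.5.3p9, and deposited the gene counts, and counts for the exon bins of a flattened annotation, without normalization. They also deposited a list of read totals, used here only to compare depths, and comparison tables of fold changes and p-values, which were not used. Exon-bin files covered 10 mice, without the WT/D257A control. Reads in no bin (20.6% to 23.4% of the entries) were left out.

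Mutators (7) were compared with controls (4) by the quasi-likelihood test of edgeR 4.0.16 under R 4.3.3, after filterByExpr and TMM, with a robust fit and no covariate, with Benjamini-Hochberg adjustment over all genes tested and calls at 0.05. SEs equal the size of the fitted change divided by the square root of F. CPM used TMM factors, and overlap between groups was judged on log2 CPM with a prior count of 2. Exon bins were tested with diffSpliceDGE (coefficients divided by the natural log of 2), and ratios by 2-sided exact permutation tests. The fits were tested on simulated data. Alternatives were DESeq2 1.42.0, limma-voom 3.58.1, other size factors and filters, a depth covariate, mitochondrial genes left out and each mouse left out.

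The enzymes, related genes, marker lists and enzyme pairs were chosen with earlier results of these data known. Each control value, with the lowest, median and highest mutator value, is given for members that were called or did not overlap. The same holds for members among the 10 smallest p-values and for the most and least abundant by CPM of each role group. Of the related genes, those called were chosen for such values. The related genes called and the 5 others with the smallest p-values were named; Pdk4 and the values of other members were added after the values were seen. Positions, exon lengths and sequences came from GENCODE vM1 on NCBIM37, the assembly of mm9, which is later than the annotation the authors used. Library totals differed, from 28249345 to 121182250 gene counts, and their part in the precision was not tested. Which pool each library was sequenced in is not given in the sources used here. Protein values were not analysed here. The values of 1 related gene are not reported here.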

Additional observations from a re-analysis of the deposited data

Results flagged for a closer look

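Each group of 4 or 7 mice was screened for a mouse far from the others (Dixon's criterion at 95%), over the 35 genes and 8 ratios, in 86 groups, where chance flags about 1 in 20 groups, or 4.30 here, and 4 were found. Fumarase (Fh1) was highest in mutator replicate 3, at 87.3 CPM against 76.4 to 79.1 in the other mutators (gap over range 0.750). Pdha1 was lowest in mutator replicate 4, at 203 CPM against 211 to 217 (0.578). Dlat was lowest in the WT/D257A control, at 88.5 CPM against 96.7 to 98.1 in the WT/WT controls (0.861). Got2 was lowest in control WT/WT replicate 1, at 225 CPM against 241 to 243 (0.852).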

How the results depend on the processing

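No enzyme gene was called under the other size factors, filters, depth covariate, limma-voom or summed exon bins, and 1 (Idh2) was called by DESeq2. With each mouse left out in turn, 0 to 1 were called, the 1 being Idh2 without mutator replicate 6. No paired analysis was possible because the labels pair no mice across the groups. Over all genes, edgeR called 223, DESeq2 632, limma-voom 185, no filter 346 and the leave-one-out fits 50 (without the WT/D257A control) to 412 (without control WT/WT replicate 1). Related genes called numbered 6 by DESeq2 and 0 to 3 with a mouse left out. The Ogdhl/Ogdh log2 ratio kept its direction in each alternative, at 0.25 to 0.31 with a mouse left out. There its adjusted p-value was 0.0667 to 0.133 by the exact permutation test. Of the 18 genes followed through all alternatives, 5 changed sign, as did 2 ratios. With a mouse left out, Mdh1 ranged from -0.015 to 0.056, Got1 from -0.012 to 0.045, Pdha1 from -0.013 to 0.040, Pdp1 from -0.047 to 0.0067, Sucla2/Suclg2 from -0.016 to 0.030 and Pdp2/Pdp1 from -0.099 to 0.022. On summed exon bins, Mdh1 was at -0.012, Pdha1 at -0.017 and Pdhx at -0.0049. Over the 34 genes other than Glud1, 8 changed sign there, with log2 fold changes between -0.038 and 0.039 in the gene table. The causes were not tested. The lowest counts were those of Glud1 in the gene table (67 to 260, against 8844 to 38333 in the exon bins of its merged group) and Pdp2 (264 to 1002).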
